A study of Mus musculus with 11 samples.

Results

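The 3p arms of the miR-290 to miR-295 cluster, the group of miRNAs that mouse embryonic stem (mES) cells hold at the highest level, were examined in mES cells with and without Trim71. The members were all miRNAs of the processed table that come from hairpins miR-290 to miR-295, with any letter, and whose names end in -3p. There were 9 such miRNAs among the 592 of the table, and the table also holds the 9 5p arms of the same hairpins. The cells were male C57BL/6 mES cells with floxed Trim71 alleles and a CreERT2 recombinase expressed from the Rosa26 locus, grown in medium with FCS and LIF and sorted for SSEA-1 on magnetic beads. Trim-/- cells had received 500 nM 4-hydroxytamoxifen (4-OHT) for 2 days, which activates the recombinase, followed by 7 or more days of culture according to the labels, whereas the methods of the study give a lower dose and a shorter culture, with DMSO for the controls. Trimfl/fl cells, the controls, carried the same alleles and the same recombinase. There were 5 Trim-/- and 6 Trimfl/fl libraries of 2 clones. Days 1, 5 and 6 each had 1 library of either genotype from clone 1, days 3 and 4 each had 1 of either genotype from clone E3, and day 2 had only a Trimfl/fl library of clone E3. The labels do not say what the day number counts. Since nothing states that the libraries of a clone are independent derivations, p-values measure the spread between these libraries.

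A miRNA hairpin is cut by Drosha and Dicer into a duplex of a 5p and a 3p arm, 1 strand of which is usually kept by an Argonaute protein. The strand finds its targets mainly through its seed, bases 2 to 8 counted from the 5′ end. In the miR-290 to miR-295 cluster, the hairpins of the plus strand are transcribed as 1 primary RNA. The cluster is under control of the pluripotency factors and is switched off as mES cells differentiate. Its 3p arms with the seed AAGUGCU are known to repress inhibitors of the G1 to S transition, among them Cdkn1a, and can restore rapid cycling to mES cells that lack other miRNAs. Trim71 is an RNA-binding TRIM-NHL protein and a target of let-7, the miRNA family whose effects in mES cells oppose those of this cluster.

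The mature sequences of the 3p arms, taken from RefSeq on GRCm38.p6, are shown to set the seeds beside each other. Capitals mark the seed, and 8 of the 9 members had an entry. miR-292-3p had none, so its seed was not read.
miR-291a-3p: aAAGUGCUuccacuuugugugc
miR-294-3p: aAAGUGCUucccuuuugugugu
miR-295-3p: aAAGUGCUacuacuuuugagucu
miR-291b-3p: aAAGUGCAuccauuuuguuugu
miR-290a-3p: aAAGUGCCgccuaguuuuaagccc
miR-293-3p: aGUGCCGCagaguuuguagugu
miR-290b-3p: aAGUGCCCccauaguuugagua
miR-292b-3p: aAGAGCCCccaguuugaguau

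The seed AAGUGCU was shared by 3 of the members with an entry, miR-291a-3p, miR-294-3p and miR-295-3p. miR-291b-3p and miR-290a-3p kept its first bases and ended the seed in a different base, AAGUGCA and AAGUGCC. The letters GUGCC lie further forward in miR-293-3p, whose seed is GUGCCGC, and in miR-290b-3p, whose seed is AGUGCCC. miR-292b-3p had the seed AGAGCCC. Set side by side without gaps from the 5′ end, miR-291a-3p and miR-294-3p differed at 3 of 22 bases and were identical over their first 11 bases, whereas miR-291a-3p and miR-295-3p differed at 7 of 22.

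The 9 hairpins occupy 2216 bp of mouse chromosome 7, at chr7:3218626-3220841 in GRCm38, in the order Mir290a, Mir290b, Mir291a, Mir292, Mir292b, Mir291b, Mir293, Mir294 and Mir295. The plus strand carries 7 of them. Mir290b, at chr7:3218638-3218695, and Mir292b, at chr7:3219198-3219259, are annotated on the minus strand, opposite Mir290a and Mir292. All but Mir290a and Mir290b lie within the UTR part of exon 10 of Nlrp12, a protein-coding gene of the minus strand that encodes an innate immune regulator.

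The deposited values are normalized read counts after a batch correction, so the number of reads behind them is unknown. Of the cell type markers, the miR-302 and miR-367 list, which marks mES cells as this cluster does, was present with 4 of 4 miRNAs, none at the authors' floor of 1 in any paired library, at a summed level of 7955 to 13561 in Trim-/- and 13218 to 18824 in Trimfl/fl libraries. The let-7 list (8 of 8), which rises in differentiated cells, summed to 33743 to 94488 in Trim-/- and 699.7 to 32435 in Trimfl/fl libraries, with 6 of its 8 miRNAs at the floor in at least 1 library. The fibroblast list (5 of 6 in the table) summed to 14063 to 35603 and 14285 to 35826, and the neural list (3 of 3) to 5457 to 8908 and 3140 to 6591, in the same order. Neither list had a miRNA at the floor in the paired libraries. Whether these markers have a part in the results for the 3p arms was not tested. Trim71 mRNA was not measured here, so the deletion could not be checked in these libraries.

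For each of the 9 members the values of the libraries of a day added up to the same sum on every day, to within 0.1%. A library that is high for a member therefore faces a same-day partner that is low by as much, the SDs of both genotypes are equal, and each day contributes 1 difference. Level differences between days and between clones are no longer in the values. On day 2 the Trimfl/fl library held, for 9 of 9 members, the average over the Trimfl/fl libraries of the other days, and it entered no test. No member had a value at the floor.

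The 3p arms differed widely in level. Over the 10 paired libraries, miR-291a-3p had the highest mean with 442220 normalized reads, which placed it at rank 2 of the table, and miR-293-3p followed at rank 4 with 303649. miR-292-3p (rank 7, 161005) and miR-295-3p (rank 8, 157233) had means within 1.02-fold of each other. Each was the higher one in 5 of 10 libraries, but equal same-day sums make such a split likely, so it does not measure their order. miR-292-3p was the higher one in the Trim-/- libraries of days 1, 3, 5 and 6 and in the Trimfl/fl library of day 4. miR-294-3p came next at rank 11 with 109728. The remaining members were much lower: 23509 for miR-292b-3p at rank 21, 5049 for miR-290b-3p at rank 62, 3542 for miR-291b-3p at rank 72 and 492 for miR-290a-3p at rank 186. miR-291a-3p exceeded miR-293-3p and miR-293-3p exceeded miR-292-3p in 10 of 10 libraries, whereas miR-295-3p exceeded miR-294-3p and miR-290b-3p exceeded miR-291b-3p in 9 of 10. Only below miR-294-3p, below miR-292b-3p and below miR-291b-3p did the ranges of neighbours in this order stand apart. All values count reads of mature miRNAs of 21 to 24 bases in the members with a sequence, so they were not scaled by length.

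**Figure D1:**
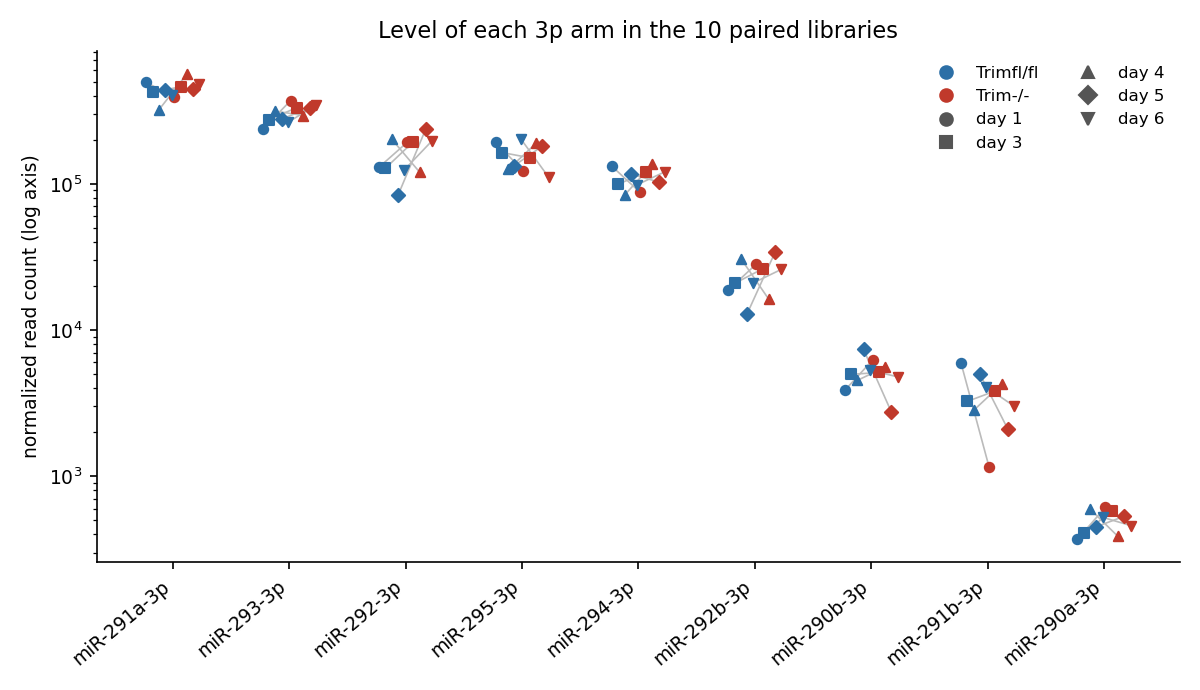
Normalized read count (log axis) of each 3p arm in the 10 paired libraries, with blue points for Trimfl/fl, red points for Trim-/-, a symbol for each day and grey lines joining the libraries of a day. Means fall from 442220 for miR-291a-3p to 492 for miR-290a-3p, and red and blue points overlap in every member.

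No 3p arm differed between the genotypes in a way that held across the days. None of the 9 members passed the study's thresholds (fold change over 1.5, unadjusted p under 0.05) in a limma fit on log2(value + 1) with genotype and day. Over all 592 miRNAs, 5 passed them as higher in Trim-/- (0.845%) and 27 as lower (4.56%), or 2 and 47 with libraries scaled to equal totals. None of the 9 had an unadjusted p under 0.05 in that fit or in limma with trend, and none had an adjusted p under 0.05, as none of the 592 did (0%). None of the 9 differed in the same direction on all 5 days, which here is the same as groups that do not overlap, against 11.5% of the table. The estimate was above 0 in 6 members and below 0 in 3, with a median of 0.13 on the log2 scale beside a median of 0.03 over all miRNAs. With libraries scaled to equal totals the median over all miRNAs moved to -0.24 and that of the members to -0.14, and 3 of the 9 estimates were above 0. This scaling moved all 9 estimates by the same -0.27, so the members kept their place relative to the other miRNAs.

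**Figure D2:**
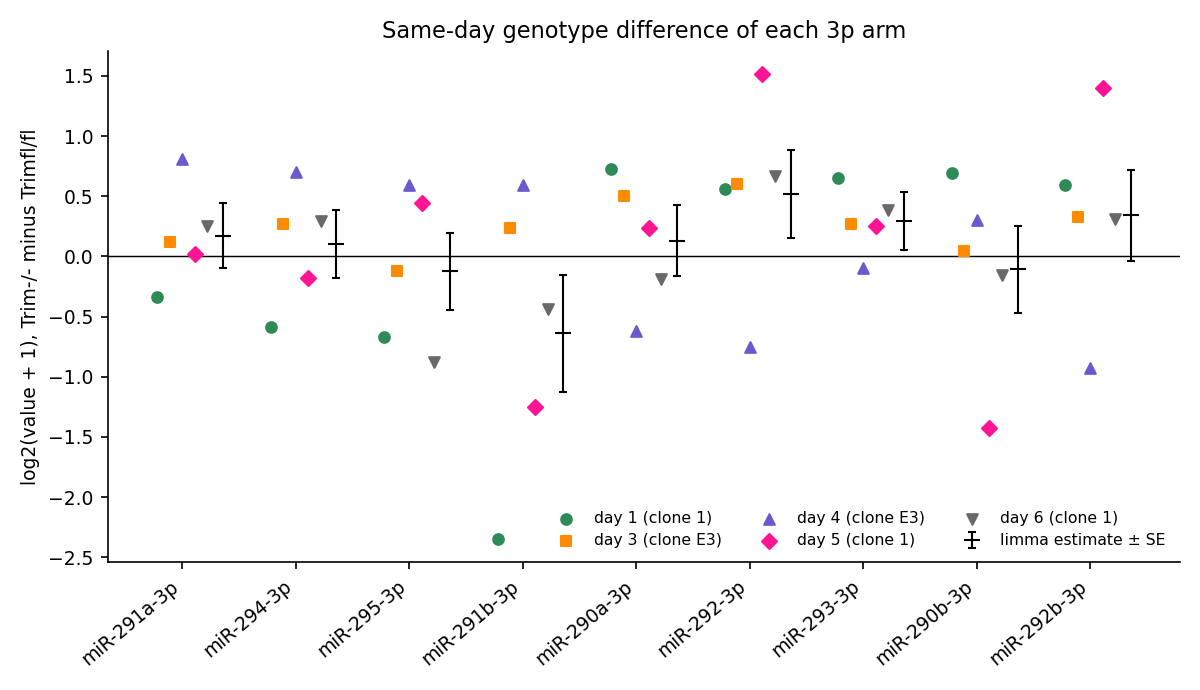
Difference in log2(value + 1), Trim-/- minus Trimfl/fl, of each 3p arm on each of the 5 days (coloured symbols, with the clone in the legend) and the limma estimate with its standard error (black). No member has all 5 symbols on 1 side of 0, and the symbols of days 1 and 4 lie on opposite sides of 0 for 8 of the 9 members, miR-290b-3p being the exception.

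miR-291a-3p, one of the 3 miRNAs with the AAGUGCU seed, had 390470, 459949, 563471, 444785 and 481304 normalized reads in the Trim-/- libraries of days 1, 3, 4, 5 and 6. In the Trimfl/fl libraries of the same days it had 493971, 424492, 320970, 439656 and 403136. The Trim-/- library was the higher one on 4 of the 5 days, all but day 1, and the groups overlapped. The means were 467996 ± 63060 and 416445 ± 63060 (SD, n = 5 each), and the log2 difference of 0.17 (95% interval -0.48 to 0.83, limma, adjusted p = 0.773) was smaller than the spread between days. With libraries scaled to equal totals this difference was -0.098. As a share of the library, miR-291a-3p was higher in Trim-/- on 2 of the 5 days.

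miR-294-3p, which shares this seed, had 87724.5, 120030, 135838, 102871 and 120932 normalized reads in Trim-/- cells on days 1, 3, 4, 5 and 6, and 131733, 99426.9, 83618.8, 116586 and 98524.8 in Trimfl/fl cells. It was higher in Trim-/- on days 3, 4 and 6 and lower on days 1 and 5. The log2 difference was 0.10 (95% interval -0.59 to 0.79, limma, adjusted p = 0.878), and -0.17 with libraries scaled to equal totals. Its values kept close to those of miR-291a-3p: the level of miR-291a-3p was 3.75 to 4.45 times that of miR-294-3p in all 10 libraries, a 1.19-fold range. Among the 153 ways to pair the 18 miRNAs of the cluster, the ratio had a median range of 3.03-fold, and this pair ranked at place 2 from the narrowest. These are the members that match over their first 11 bases. Whether reads of one are counted for the other was not tested.

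miR-295-3p, the other member with this seed, had a wider ratio to miR-291a-3p than miR-294-3p had. Its values in Trim-/- were 121571, 150764, 189167, 181116 and 110968 normalized reads on days 1, 3, 4, 5 and 6, against 192894, 163702, 125298, 133350 and 203498 in Trimfl/fl. It was higher in Trim-/- on days 4 and 5 and lower on days 1, 3 and 6, with a log2 difference of -0.12 (95% interval -0.91 to 0.66, limma, adjusted p = 0.870). The ratio of miR-291a-3p to miR-295-3p ranged over 2.19-fold, from 1.98 to 4.34. This was place 34 from the narrowest of the 153 pairs, still below their median range of 3.03-fold.

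miR-293-3p had the narrowest range of the members in the deposited values, 1.57-fold over the 10 libraries. As a share of the library its range was 1.703-fold, wider than those of miR-292-3p (1.53-fold) and miR-292b-3p (1.64-fold). It had 371278, 332279, 293134, 329808 and 343937 normalized reads in Trim-/- cells on days 1, 3, 4, 5 and 6, and 236019, 275018, 314163, 277490 and 263360 in Trimfl/fl cells. The Trim-/- library was above its partner on all days except day 4, when it was below by 0.10 on the log2 scale. The means were 334087 ± 28191 and 273210 ± 28191 (SD, n = 5 each), and the log2 difference of 0.29 had a 95% interval of -0.30 to 0.88 (limma, unadjusted p = 0.270, adjusted p = 0.652). When the genotypes were permuted within days, the exact two-sided p was 0.125, where 0.0625 is the smallest that 5 pairs allow. For the other members this permutation p ran from 0.3125 to 0.875. With libraries scaled to equal totals the log2 difference was 0.022.

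miR-292-3p had the highest estimate of the members and wide differences between days. The Trim-/- libraries of days 1, 3, 4, 5 and 6 held 191894, 194186, 120058, 238545 and 197453 normalized reads, and the Trimfl/fl libraries 130116, 127824, 201952, 83465.5 and 124557. The Trim-/- library was the higher one on 4 days, by 2.86 times on day 5, and the lower one on day 4, at 0.594 of its partner. The log2 difference was 0.52 (95% interval -0.38 to 1.42, limma, unadjusted p = 0.208, adjusted p = 0.645). Without the pair of day 4 the estimate was 0.84 with an unadjusted p of 0.0321, past the thresholds of the study, as were 11.3% of all miRNAs in that fit, in which the lowest adjusted p was 0.385. The days of clone E3 alone gave -0.07. With libraries scaled to equal totals it was 0.25. Its hairpin faces Mir292b on the opposite strand, which is taken up with the minus-strand members.

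miR-290a-3p, the lowest member, ranged from 371 to 613 normalized reads. It was higher in Trim-/- on days 1, 3 and 5 and lower on days 4 and 6, and its log2 difference was 0.13 (95% interval -0.59 to 0.85, limma, adjusted p = 0.861). With libraries scaled to equal totals this difference was -0.14. miR-290a-3p overlaps an arm on the opposite strand, as described with the minus-strand members.

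miR-291b-3p, with the seed AAGUGCA, varied most, over a 5.10-fold range across the 10 libraries. In clone 1 it had 1161, 2099 and 3013 normalized reads in Trim-/- cells on days 1, 5 and 6, against 5923, 4985 and 4071 in Trimfl/fl cells. In clone E3 it had 3832 and 4261 in Trim-/- cells on days 3 and 4, against 3252 and 2823. All days of clone 1 were thus lower in Trim-/- and both days of clone E3 were higher. The log2 difference was -0.64 over all 5 days (95% interval -1.82 to 0.54, limma, adjusted p = 0.645), -1.34 in clone 1 and 0.42 in clone E3.

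The difference between the clones was tested for every miRNA as the genotype effect of clone 1, with 3 pairs, minus that of clone E3, with 2 pairs. No member passed an adjusted p of 0.05 or an unadjusted p of 0.05 (limma), beside 1 of the 592 miRNAs at the adjusted threshold (0.169%) and 33 at the unadjusted one. miR-291b-3p had the widest contrast of the members at -1.76 (95% interval -3.64 to 0.12, unadjusted p = 0.0618, adjusted p = 0.627). For miR-292b-3p it was 1.06 and for miR-292-3p 0.99. The estimates of the clones had opposite signs in all members except miR-293-3p, for which they were 0.43 in clone 1 and 0.09 in clone E3.

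How far the members moved together depended on the day. On day 3, 8 of the 9 were higher in Trim-/-, all but miR-295-3p, beside 291 of the 592 miRNAs of the table. On day 1 the 3 AAGUGCU members were all lower in Trim-/- and 5 of the 6 other members were higher, miR-291b-3p being the exception. On day 4 the 3 AAGUGCU members were all higher, with log2 differences of 0.81 for miR-291a-3p, 0.70 for miR-294-3p and 0.59 for miR-295-3p. Among the others, miR-292b-3p, miR-292-3p, miR-290a-3p and miR-293-3p were lower on that day, at -0.93, -0.75, -0.62 and -0.10, and miR-291b-3p and miR-290b-3p were higher. A single pair of libraries stands behind each of these days.

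Of the members of the minus strand, miR-290b-3p kept a nearly fixed ratio to the 5p arm on the opposite strand, with a 1.14-fold range. For miR-292b-3p the range was 1.43-fold, wider than the 1.19-fold range of miR-291a-3p to miR-294-3p, which do not face each other. The sequences of the plus-strand 5p arms are shown because they face miR-290b-3p and miR-292b-3p base for base, and both have the seed CUCAAAC.
miR-290a-5p: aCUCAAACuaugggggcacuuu
miR-292-5p: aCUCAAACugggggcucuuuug

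miR-290b-3p overlaps miR-290a-5p over 21 genomic bases, at chr7:3218639-3218659, and all 21 are complementary. miR-292b-3p overlaps miR-292-5p over 19 bases, at chr7:3219200-3219218, again with all 19 complementary. In level, miR-290a-5p was at 1.13 times miR-290b-3p and miR-292-5p at 36.8 times miR-292b-3p. The sources used here do not state whether reads were counted by strand. Whether reads of these overlapping miRNAs were kept apart was not tested, so the values of both minus-strand members are uncertain. The same holds for the plus-strand member miR-290a-3p, whose bases face miR-290b-5p with 22 of 22 complementary and whose level was about 3.15 times as high. Since the hairpins Mir292 and Mir292b overlap on opposite strands, miR-292-3p carries this uncertainty too, although its overlap was not measured base by base.

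miR-290b-3p had 6235, 5125, 5576, 2739 and 4783 normalized reads in Trim-/- cells on days 1, 3, 4, 5 and 6, and 3864, 4973, 4523, 7359 and 5316 in Trimfl/fl cells. It was higher in Trim-/- on days 1, 3 and 4, and its log2 difference was -0.11 (95% interval -0.998 to 0.782, limma, adjusted p = 0.892). miR-290a-5p had a log2 difference of -0.16. The ratio of miR-290b-3p to miR-290a-5p stayed between 0.822 and 0.937 in the 10 libraries, a 1.14-fold range and the narrowest of the 153 pairs of cluster miRNAs. Its ratio to miR-290b-5p, the other arm of its own hairpin, ran from 13.4 to 66.1.

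miR-292b-3p ranged from 12927 to 34091 normalized reads, with a log2 difference of 0.34 (95% interval -0.57 to 1.25, limma, adjusted p = 0.708). Like miR-292-3p, it was lower in Trim-/- on day 4 only. It held 0.0244 to 0.0348 of the level of miR-292-5p, a 1.43-fold range, and 0.638 to 2.07 of the level of miR-292b-5p. Its ratio to miR-292-3p, also of the opposite strand but not the arm it faces, varied little too. miR-292-3p was at 5.93 to 7.59 times its level, a 1.28-fold range. Between miR-292-3p and miR-292b-5p, the 5p arm of the minus-strand hairpin, the ratio was wider, from 4.85 to 12.28, a 2.53-fold range. Because the libraries of a day mirror each other, the 10 libraries give these ranges no more than 5 separate days, from 2 clones. How far these ratios varied between days before the batch correction cannot be seen in the deposited values.

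**Figure D3:**
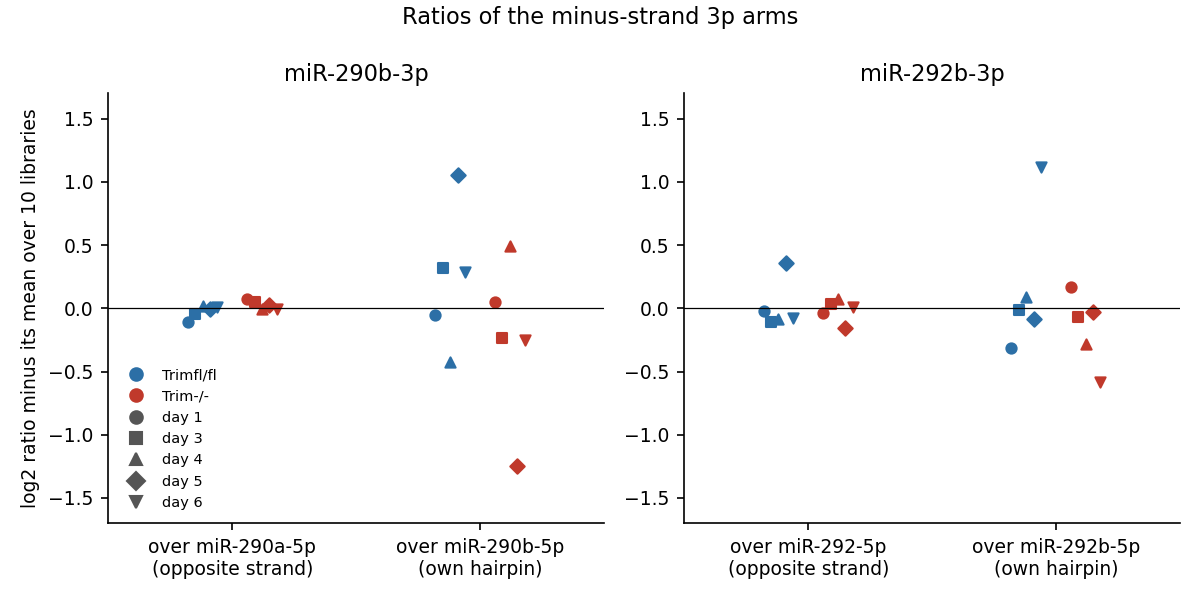
Log2 ratio of miR-290b-3p (left) and miR-292b-3p (right) to the 5p arm on the opposite strand and to the 5p arm of their own hairpin, minus the mean over the 10 paired libraries, with blue points for Trimfl/fl, red points for Trim-/- and a symbol for each day. The ratio of miR-290b-3p to miR-290a-5p stays near 0 in all libraries (a 1.14-fold range), while the ratios to the own hairpin spread.

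In each library the 3p arms together held 24.1% to 39.2% of the summed values. The share was 29.5% ± 4.15 in Trim-/- and 31.1% ± 5.26 in Trimfl/fl cells (SD, n = 5 each), a difference of -1.60 percentage points that was smaller than the spread of the days (exact permutation within days, two-sided p = 0.6875). The difference was -15.2 points on day 5 and 10.4 points on day 4. A lower share did not go with a lower level on day 5, when the 3p arms summed to 1336586 normalized reads in Trim-/- and 1076271 in Trimfl/fl, while the library totals were 5551715 and 2742673. On day 4 the 3p sums were 1328111 and 1084744 and the totals 3751519 and 4332525. The summed level of the 3p arms was higher in Trim-/- on 4 of the 5 days, at 1.15 to 1.24 times its partner, and at 0.988 on day 1, and the library total was likewise higher on 4 of the 5 days, all but day 4. Without day 5 the mean difference was 1.797 points. Within the clones, the difference was -6.67 points in clone 1 and 6.02 points in clone E3.

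The cluster as a whole held 55.3% to 59.4% of each library, and the 5p arms 19.9% to 32.6%. The differences in the shares of the 3p and the 5p arms had opposite signs on 4 of the 5 days, and on day 3 both shares were higher in Trim-/-, by 1.68 and 0.85 points. In levels rather than shares, the 5p arms summed to 3.18 times their partner in Trim-/- on day 5 and to 0.609 on day 4. miR-292-5p, the most abundant miRNA of the table, alone held 13.5% to 27.7% of a library. Its share differed by -12.6 points on day 4 and by 11.7 points on day 5, Trim-/- minus Trimfl/fl. With miR-292-5p left out of the total the difference in the 3p share was -1.34 points. Shares of 1 total are bound to each other, so a rise in one lowers the rest.

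**Figure D4:**
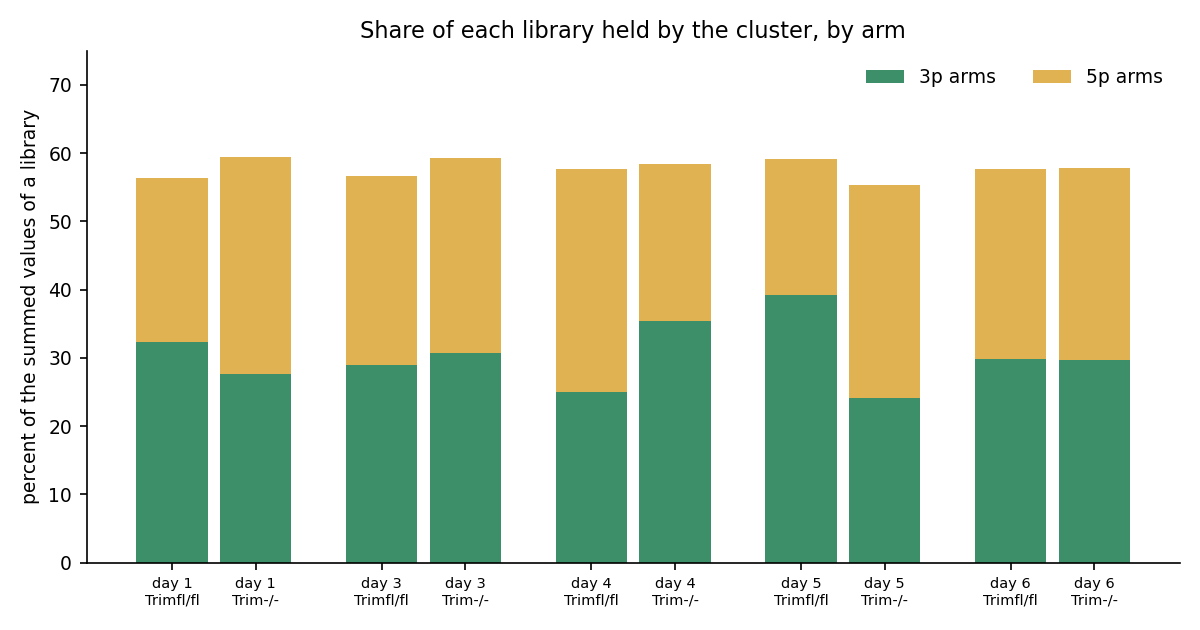
Percent of the summed values of each of the 10 paired libraries held by the 3p arms (green) and the 5p arms (yellow) of the cluster. The green part runs from 24.1% to 39.2%, and the whole bar stays between 55.3% and 59.4%.

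Within the 3p arms, the AAGUGCU seed made up 48.8% to 67.4% of the reads. miR-292-3p, whose seed was not read, is not counted with this seed. Its share was 56.7% ± 6.23 in Trim-/- and 60.9% ± 7.10 in Trimfl/fl cells (SD, n = 5 each), a difference of -4.24 points (exact permutation within days, two-sided p = 0.5625, 0.8125 after adjustment over the seeds). It was lower in Trim-/- on 4 of the 5 days, with differences of -17.4, -4.88, -9.55 and -7.40 points on days 1, 3, 5 and 6, and higher by 18.05 points on day 4. Without day 4 the difference was -9.82 points and without day 1 it was -0.94. Within the clones, it was -11.5 points in clone 1 and 6.58 points in clone E3. miR-293-3p, alone with its seed among the members with a sequence, held 19.4% to 31.0%. miR-292-3p held 7.76% to 18.6%, and each of the remaining members held at most 2.84%.

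The hairpins differed widely in the ratio of reads from their arms. In the geometric mean over the 10 libraries, miR-294-3p was 69.4 times its 5p arm, miR-295-3p 33.9 times, miR-290b-3p 31.8 times and miR-291a-3p 22.0 times. miR-293-3p was at 1.63 and miR-292b-3p at 0.954 of its 5p arm. The 5p arm was the higher one for miR-291b (3p to 5p ratio 0.507), miR-292 (0.185) and miR-290a (0.0879). For miR-290a, miR-290b, miR-292 and miR-292b it is unknown whether reads were kept apart from those of the opposite strand, so their ratios are uncertain. The 3 hairpins with the AAGUGCU seed thus all had a 3p arm that exceeded the 5p arm in every library, at least 16.8 times for miR-291a, 17.7 times for miR-295 and 42.8 times for miR-294.

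No hairpin changed its arm ratio with the genotype by more than the spread between days. Summed over the hairpins, the ratio of 3p to 5p arms ran from 0.767 to 1.97, with a log2 difference of -0.19 between Trim-/- and Trimfl/fl (exact permutation within days, two-sided p = 0.6875). The single hairpins had log2 differences from -0.90 for miR-291b, whose ratio was lower in Trim-/- on 4 of 5 days, to 0.30 for miR-290a, with permutation p-values between 0.1875 and 0.9375 and adjusted values of at least 0.703. The clones differed in sign here too, with -0.67 for clone 1 and 0.52 for clone E3.

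**Figure D5:**
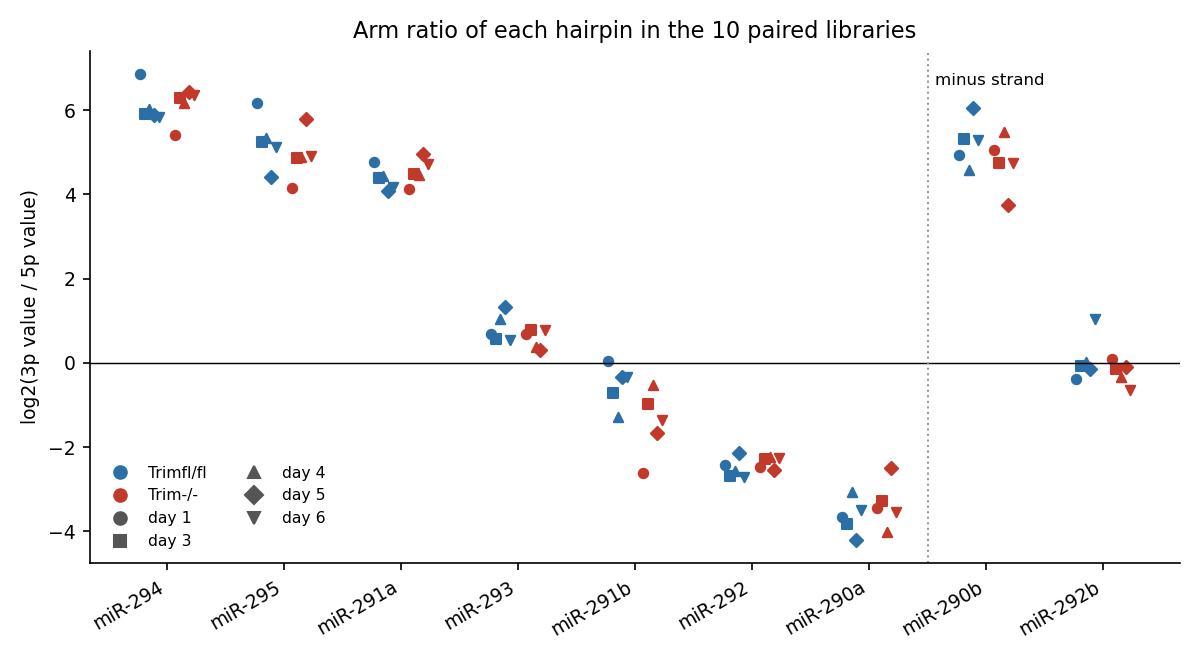
Log2 of the ratio of the 3p to the 5p value for each hairpin in the 10 paired libraries, with blue points for Trimfl/fl, red points for Trim-/-, a symbol for each day and the minus-strand hairpins to the right of the dotted line. The ratio lies far above 0 for miR-294, miR-295, miR-291a and miR-290b and below 0 for miR-292 and miR-290a in all libraries, and the colours overlap.

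The 5p arms of the hairpins gave similar counts. None of the 9 passed the thresholds, 7 estimates were above 0 and 2 below, and the median was 0.26. As 11.5% of the table did, 1 of the 9 kept its direction on all 5 days. This was miR-293-5p, higher in Trim-/-, with 224085 ± 30147 against 155035 ± 30147 normalized reads (SD, n = 5 each) and a log2 difference of 0.54 (limma, unadjusted p = 0.102, adjusted p = 0.607). The direction held in the deposited values only. As a share of the library, miR-293-5p was lower in Trim-/- on day 3 (4.58% against 4.81%) and day 6 (4.58% against 4.78%), and higher on the other days.

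The letters AAGUGC also occur within bases 1 to 9 of miRNAs outside the cluster, in the miR-302 cluster of mES cells and in the miR-17 family, which promotes proliferation. An example of either is shown for the place of these letters, with capitals again at bases 2 to 8.
miR-302d-3p: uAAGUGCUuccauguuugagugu
miR-17-5p: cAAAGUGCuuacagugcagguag

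Of these 10 miRNAs, 1 of them miR-302a-3p taken by name, 9 had an estimate below 0 and 1 above, with a median of -0.44, and none passed the thresholds. Of all 592 estimates, 289 were below 0, with a median of 0.03, and 5.41% passed. miR-302d-3p had the lowest estimate, -0.66 (4659 ± 1083 normalized reads in Trim-/- and 7298 ± 1083 in Trimfl/fl, SD, n = 5 each, limma, adjusted p = 0.607). miR-302a-3p was at -0.64, miR-106a-5p at -0.57, miR-302c-3p at -0.54, miR-106b-5p at -0.52 and miR-20b-5p at -0.36. miR-302b-3p was at -0.28, miR-17-5p at -0.19, miR-93-5p at -0.16 and miR-20a-5p at 0.03. The 3 AAGUGCU members of the cluster had estimates between -0.12 and 0.17. The median of the 10 was below 0 on days 1, 3, 5 and 6 and was 0.88 on day 4, the day on which the AAGUGCU members had their highest differences. In clone E3 alone it was 0.17 and in clone 1 alone -0.65, and with libraries scaled to equal totals it was -0.71.

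The miRNAs outside the cluster whose 5 same-day differences lay nearest to the mean of the members' differences were miR-425-5p, miR-652-3p, miR-26a-5p, miR-19a-3p and miR-872-5p. Their root mean square distances on the log2 scale were 0.14, 0.16, 0.23, 0.25 and 0.25, among 274 miRNAs with a mean of at least 100 and no value at the floor, whose median distance was 0.79. The members themselves lay at a median distance of 0.58 from their own mean, so that this mean describes none of them closely. The estimates of these neighbours ran from -0.09 for miR-19a-3p to 0.23 for miR-872-5p. That they are small follows from the choice by closeness to the members' mean.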

How the data were processed

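Small RNA from mES cells was sequenced in 11 libraries. For the deposited table, the authors trimmed reads (CASAVA 1.8, FLICKR), aligned them with Bowtie2 2.2.1 to mm10 and miRBase, counted them per miRNA in Partek 6.6 and applied DESeq2 normalization, a batch correction, a floor of 1 and a filter on low miRNAs. The deposited values are therefore a signal (normalized, corrected read counts) without raw counts or a known depth, and the precision comes from 5 pairs. The methods give a small RNA kit and short reads, the labels a kit for mRNA. Of the table's rows, 9677 are blank and were left out.

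Genotypes were compared in the 10 libraries of days 1, 3, 4, 5 and 6 with limma 3.58.1 (R 4.3.3) on log2(value + 1) over 592 miRNAs, with genotype and day as factors and Benjamini-Hochberg adjustment. The pairing comes from the labels, where a day joins 1 library of each genotype of 1 clone, and the equal same-day sums make the deviations of partners exact opposites on the untransformed scale. A pseudocount of 1 hardly affects the members. Shares and arm ratios were tested by exact permutation of genotypes within days (32 sign patterns, two-sided), as were the levels of the members beside limma. The fit was tested on simulated data.

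Named were all members, the 5p arms, the AAGUGC miRNAs outside the cluster and the 5 nearest patterns. The members and lists were chosen with earlier results of these data known. As alternatives, a fit with no replicate block was run, as were other scalings, pseudocounts of 0.1 and 10, a mean of at least 100, limma with trend, untransformed values, single clones, fits leaving out single days, and other denominators and summaries. Hairpin positions came from GENCODE on GRCm38 and mature sequences from RefSeq, which matched 464 miRNAs of the table. Plots used matplotlib 3.10.9 and tables pandas 2.3.3, in Python 3.11.15.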

Additional observations from a re-analysis of the deposited data

Results flagged for a closer look

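For miR-291b-3p the genotype difference went one way in all 3 pairs of clone 1 (lower in Trim-/-, mean -1.34 on the log2 scale) and the other way in both pairs of clone E3 (higher, mean 0.42). The contrast of the clones was -1.76, and it did not pass the limma test of the difference (unadjusted p = 0.0618, adjusted p = 0.627).

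Within groups of 5 libraries, single values stood apart from the others by Dixon's criterion in 13 of the 122 groups examined (levels, shares and arm ratios of the miRNAs named), where chance gives about 1 in 20. The groups are not independent, since same-day libraries mirror each other and shares use the same totals. None of the levels of the 9 members was among them. On day 4 these were the levels of miR-106a-5p (12106 in Trim-/- and 5319 in Trimfl/fl) and miR-17-5p (19132 and 6754), the share of the library held by miR-292-3p (3.20% in Trim-/- and 4.66% in Trimfl/fl) and that of miR-292b-3p in Trim-/- (0.432%). On day 5 they were the shares of miR-290b-3p in Trimfl/fl (0.268%) and of miR-293-3p (5.94% in Trim-/- and 10.1% in Trimfl/fl), in the pair whose library totals were 5551715 and 2742673. The log2 ratio of 3p to 5p stood apart for miR-294 on day 1 (5.42 in Trim-/- and 6.86 in Trimfl/fl) and for miR-292b in Trimfl/fl on day 6 (1.05).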

How the results depend on the processing

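No member passed the thresholds in 16 of the 17 alternatives. The exception was the fit without the pair of day 4, in which 1 member of 9 passed, miR-292-3p (0.84), beside 11.3% of all miRNAs. With single days left out the count ran from 0 to 1, and the log2 differences ran from -0.017 to 0.32 for miR-290a-3p, -0.31 to 0.22 for miR-290b-3p, 0.01 to 0.30 for miR-291a-3p, -0.95 to -0.21 for miR-291b-3p, 0.27 to 0.84 for miR-292-3p, 0.08 to 0.66 for miR-292b-3p, 0.20 to 0.39 for miR-293-3p, -0.050 to 0.27 for miR-294-3p and -0.30 to 0.063 for miR-295-3p. miR-293-3p kept its sign in the 17 alternatives of its estimate, but fell from 0.29 to 0.022 with division by library totals, 0.040 with totals without the cluster and 0.012 with totals without the members and miR-292-5p. Division by totals shifted all 9 members alike, by -0.27 with library totals, -0.25 with totals without the cluster and -0.28 with totals without the members and miR-292-5p, so estimates between 0 and the size of the shift changed sign. Division by library totals turned the sign for miR-290a-3p (-0.14), miR-291a-3p (-0.10) and miR-294-3p (-0.17), as did totals without the cluster (-0.12, -0.080 and -0.15) and, chosen after seeing the data, totals without the members and miR-292-5p (-0.15, -0.11 and -0.18). Division by library totals also moved miR-292-3p from 0.52 to 0.25, miR-292b-3p from 0.34 to 0.070, miR-290b-3p from -0.11 to -0.38, miR-295-3p from -0.12 to -0.39, miR-291b-3p from -0.64 to -0.91 and the median of the AAGUGC miRNAs outside the cluster from -0.44 to -0.71. Clone 1 alone turned it for miR-291a-3p (-0.022) and miR-294-3p (-0.16). Clone E3 alone gave -0.058 for miR-290a-3p, 0.17 for miR-290b-3p, 0.42 for miR-291b-3p, -0.073 for miR-292-3p, -0.30 for miR-292b-3p and 0.24 for miR-295-3p, and it turned the median of the AAGUGC miRNAs outside the cluster to 0.17, the difference in the 3p share to 6.02 points, that in the AAGUGCU share to 6.58 points and the arm ratio to 0.52. With single days left out, these measures ran from -0.63 to -0.29, from -4.59 to 1.797 points, from -9.82 to -0.94 points and from -0.49 to 0.10. As a share of miRNAs named 3p, the members were 1.57 points higher in Trim-/-. Leaving out the minus-strand hairpins, also chosen after seeing the data, gave -1.59 points for the 3p share and -0.19 for the arm ratio. The arm ratio moved from -0.19 (p = 0.6875) to -0.31 without the miR-292 hairpin, -0.35 as the median over hairpins (p = 0.1875 in both, exact permutation) and -0.67 in clone 1 alone, where the difference in the 3p share was -6.67 points and that in the AAGUGCU share -11.5 points. The cause of the reversals other than those under division by totals was not tested.

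The fit without the replicate block treats the libraries of a day as independent although they mirror each other, so its p-values are too small. Its estimates are the same (0.29 for miR-293-3p, limma, unadjusted p 0.0443 in place of 0.270), and no member passed the thresholds. In that fit 42 miRNAs of the table were higher and 59 lower in place of 5 and 27. These counts were 2 and 47 after division by library totals, 14 and 45 in clone 1 alone, 23 and 44 without day 4, 5 and 11 without day 1, 4 and 15 without day 6, and 5 and 10 with a mean of at least 100. With no read counts, limits from depth are unknown.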

Other observations

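Among the miRNAs with a RefSeq sequence, 464 of the 592, 7 pairs outside the cluster overlap on opposite strands. The ratio of the arm on the minus strand to that on the plus strand ranged over 1.43-fold across the 10 paired libraries for miR-24-3p and miR-3074-5p and over 226-fold for miR-24-2-5p and miR-3074-2-3p, and these 2 pairs are named as the extremes, after their values were seen. In the cluster, another such pair, miR-290a-3p and miR-290b-5p, had a minus to plus ratio of 0.246 to 0.388, a 1.57-fold range, with all 22 overlapping bases complementary.

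Among the 153 pairs of cluster miRNAs, miR-293-3p and miR-291b-5p, which come from different hairpins of the plus strand, ranked at place 3 from the narrowest. miR-293-3p was 40.7 to 51.9 times higher in the 10 libraries, a 1.27-fold range. This pair was picked after its values were seen.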
